A study of Mus musculus with 45 samples.

Results

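The ligands and receptors of the transforming growth factor beta (TGF-beta) and activin pathway were followed across 15 *PyMT*+ mouse mammary tumour cell lines. The 10 genes were listed by name and found by symbol, and all 10 of them were present among the 54838 genes counted. They are the ligand genes *Tgfb1*, *Tgfb2*, *Tgfb3*, *Inhba* and *Inhbb*, the receptor genes *Tgfbr1*, *Tgfbr2* and *Tgfbr3*, and the inhibitor genes *Smad7* and *Fst*.

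The lines carry the polyomavirus middle T antigen, an oncoprotein expressed in the mammary epithelium of the MMTV-*PyMT* mouse, and no line without it was compared. YEJG and YEJH are parental lines from primary mammary tumours. Cells of each were placed in the mammary fat pad, and new lines were made from the tumours that grew there or from micrometastases in the lung after tumour resection. YEJG gave 1 fat-pad line (YEJG-FP) and 2 lung lines (YEJG-M1 and YEJG-M2), and YEJH gave 5 of each kind (YEJH-FP1 to YEJH-FP5 and YEJH-M1 to YEJH-M5). Cells of each line were plated for a day before RNA was taken, and each line was sequenced as 3 repeats, which gave 45 libraries. Groups of lines were compared with 1 value per line. Each origin is a single parental line, so a difference between origins compares the descendants of 2 lines and not 2 genotypes. The label of YEJH-M3 names lung metastases where those of the other lung lines name the whole lung.

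TGF-beta ligands are secreted in a latent form, and once released they bind the type II receptor (*Tgfbr2*), which recruits and phosphorylates the type I receptor (*Tgfbr1*). Betaglycan (*Tgfbr3*) is a co-receptor that presents ligand, TGF-beta 2 in particular. Activin A and activin B are dimers of the inhibin beta subunits encoded by *Inhba* and *Inhbb*, they signal through activin receptors to the same Smad2 and Smad3 proteins, and they are trapped outside the cell by follistatin (*Fst*). Smad7 is an inhibitory Smad that blocks the type I receptor and is itself induced by the pathway. In mammary epithelium the pathway is known for restraining growth and for driving the transition to a mesenchymal state.

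Promoter sequences from RefSeq (build GRCm38.p6) were found for 6 of the 10 genes. The stretches printed here are the 250 bases before the start of *Inhba*, *Tgfb2* and *Tgfbr2*, a ligand that was lower, a ligand that was higher and a receptor that was lower in the YEJG lung lines than in the YEJH lung lines. Capitals mark 4 motifs searched on both strands: the Smad box CAGAC, the E-box CACCTG bound by ZEB proteins, the AP-1 site TGANTCA and the TATA box TATAAA. The *Inhba* stretch lies at chr13:16011601-16011850 on the plus strand, that of *Tgfb2* at chr1:186705990-186706239 on the minus strand and that of *Tgfbr2* at chr9:116175364-116175613 on the minus strand.
Inhba: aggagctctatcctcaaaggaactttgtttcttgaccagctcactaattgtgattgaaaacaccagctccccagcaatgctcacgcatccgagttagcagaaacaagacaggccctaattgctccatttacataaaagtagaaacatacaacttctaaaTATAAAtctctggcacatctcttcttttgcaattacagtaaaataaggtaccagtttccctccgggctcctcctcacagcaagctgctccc
Tgfb2: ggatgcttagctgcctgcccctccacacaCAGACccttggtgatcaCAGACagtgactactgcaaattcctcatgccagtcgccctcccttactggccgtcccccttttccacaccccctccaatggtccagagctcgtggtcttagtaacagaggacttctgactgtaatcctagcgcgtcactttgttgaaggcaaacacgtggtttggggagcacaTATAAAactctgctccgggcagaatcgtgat
Tgfbr2: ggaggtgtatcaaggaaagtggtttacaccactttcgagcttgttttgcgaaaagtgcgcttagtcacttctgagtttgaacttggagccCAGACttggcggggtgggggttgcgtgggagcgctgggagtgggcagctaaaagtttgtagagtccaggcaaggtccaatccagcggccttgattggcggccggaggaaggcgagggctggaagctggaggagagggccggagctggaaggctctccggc

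*Tgfb2* held 2 Smad boxes, beginning 221 and 204 bases before the start, and a TATA box 31 bases before it. *Tgfbr2* held 1 Smad box at 160 bases, and *Inhba* held a TATA box at 91 bases and no Smad box. No ZEB E-box or AP-1 site lay in these 3 stretches. Among all 32851 promoter stretches of this length, 42.2% held the Smad box, 17.2% the ZEB E-box, 6.75% the AP-1 site and 12.4% the TATA box. These matches describe letters in a window and not binding.

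Between 9723860 and 16943900 reads per library fell on genes (median 13944899). Counts were scaled by TMM factors to the mean library and are given as normalised counts, with the mean of the 3 repeats as the value of a line. The library name of YEJG-M1 repeat 1 carries YEJH-M1 instead. The names fall into 2 sets by their prefix, called A and B here, and the labels do not say what the prefix stands for. Across genes, its profile relative to the libraries of its set correlated at 0.87 with what that set held of YEJG-M1 besides it, at 0.738 with YEJG-M2 and at -0.253 with YEJH-M1, so it was kept as labelled, and leaving it out changed no call of the 10 genes. The 2 YEJG lung lines stood apart in marker genes as well. Of 8 fibroblast markers, 4 (*Pdgfra*, *Pdgfrb*, *Col1a1* and *Col1a2*) were higher in both than in every other line, and the summed level of the list was 1010 to 1220 normalised counts against 27.9 to 162 in the other 13 lines. Of the other 4, *Lum* and *Thy1* were at 0 in all libraries, and *Dcn* and *Postn* did not pass 2.97 in any line. The summed level of 9 mammary epithelial markers was 40200 to 45800 in the YEJG lung lines and 64700 to 106000 elsewhere, with *Krt5* and *Elf5* near 0 in every line. The part of these shifts in the results on the YEJG lung lines was not tested, and in bulk RNA fewer cells of a type and less RNA per cell cannot be told apart. Leukocyte markers summed to 41.6 to 62.9 in the YEJG lung lines and 28.0 to 94.4 in the others, and the lists for endothelium, lung epithelium and adipocytes reached at most 11.5, 6.11 and 0.337 in any line.

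**Figure D1:**
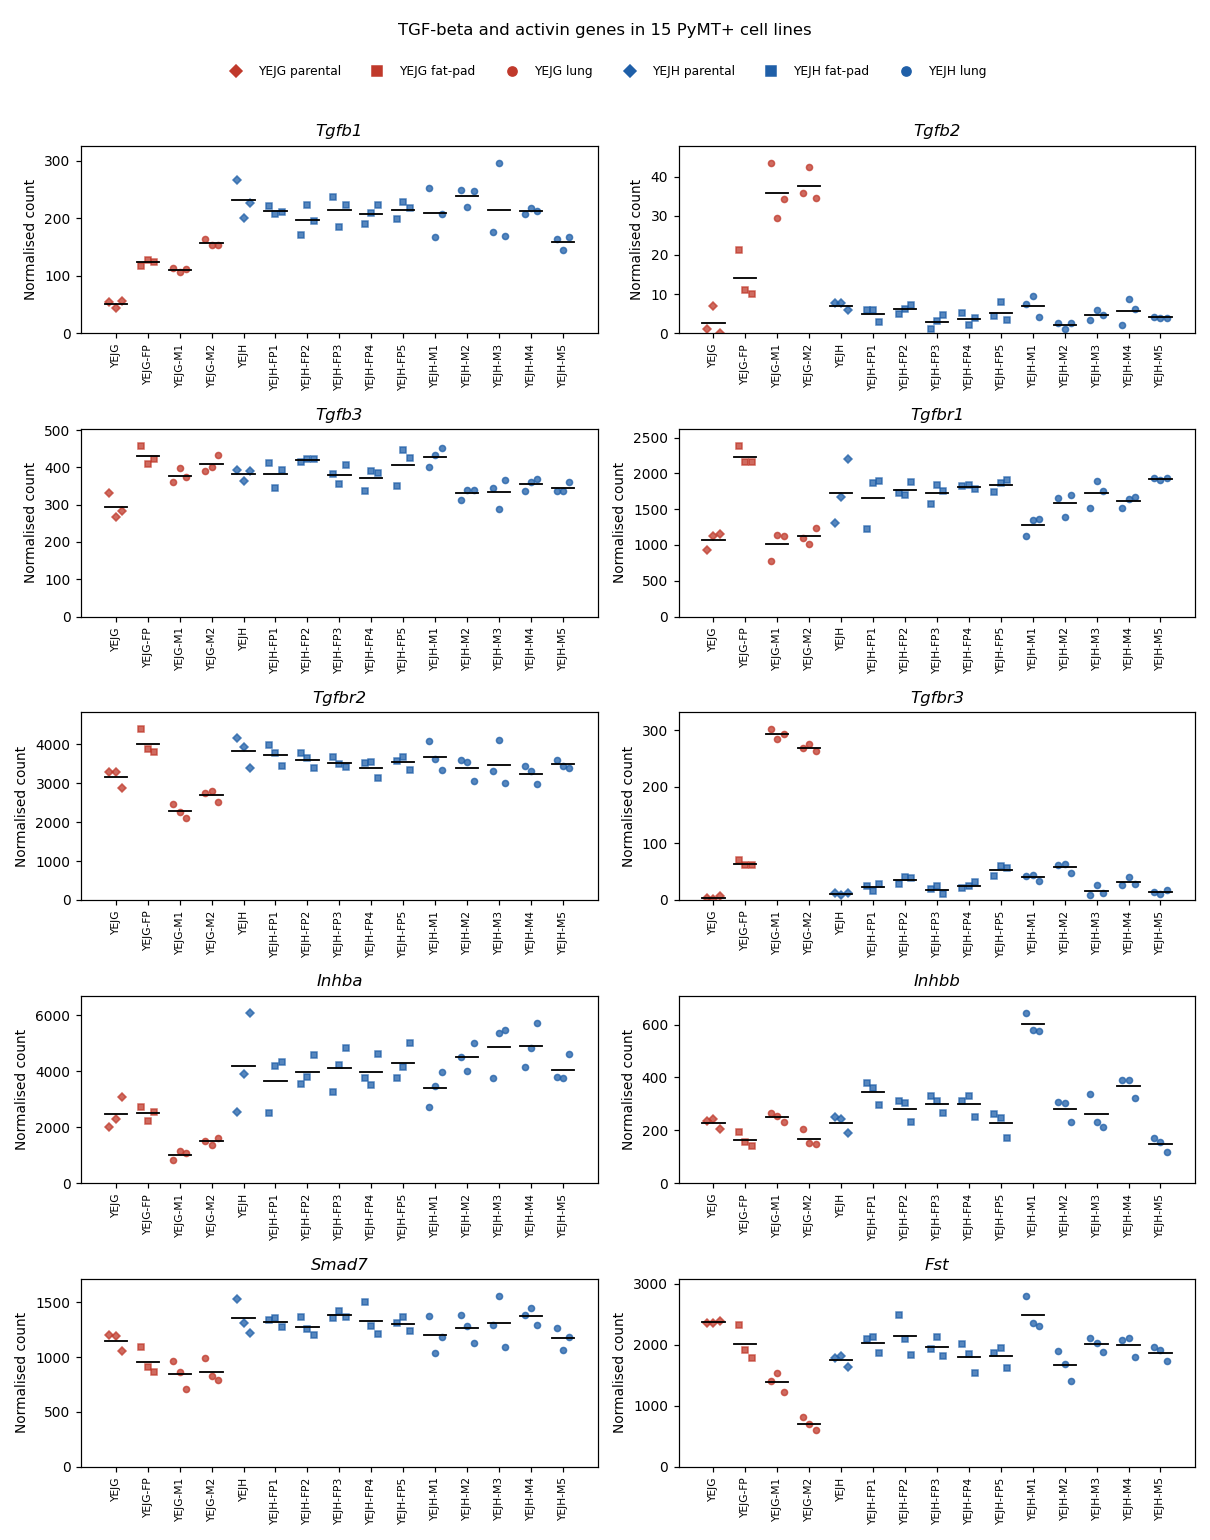
Normalised counts (vertical axis, from 0) of the 10 genes in the 15 cell lines (horizontal axis), with 1 point per library, 3 per line, and a bar at the line mean. The line means of the YEJG lung lines, red circles, lie above those of all other lines for *Tgfb2* and *Tgfbr3* and below them for *Tgfbr2*, *Inhba*, *Smad7* and *Fst*, with some overlap of single libraries for *Smad7* and *Fst*.

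Per kilobase of exon, the scale on which genes can be compared, the level of *Inhba* was the highest of the 10 at 501 ± 165 normalised counts per kilobase (SD, n = 15 lines). *Fst* followed at 395 ± 88.5 and *Tgfbr2* at 388 ± 50.0, on the same scale and over the same lines. *Inhba* and *Fst* differed by less than the SD of *Inhba* over lines, though by more than that of *Fst*. *Fst* and *Tgfbr2* differed by less than the SD of either. *Smad7* reached 254 ± 37.9 per kilobase and *Tgfbr1* 242.5 ± 51.9, which again lay within 1 SD of each other. Of the TGF-beta ligands, *Tgfb3* had the highest level per kilobase (72.2 ± 7.56), above *Tgfb1* (36.1 ± 10.4) and *Tgfb2* (1.53 ± 1.82), with *Inhbb* at 64.3 ± 25.5. *Tgfbr3* reached 9.28 ± 13.2 per kilobase, an average of lines that differed widely. With the longest annotated transcript as the length, *Fst* (630 per kilobase) passed *Inhba* (549.7 per kilobase), so the order of these 2 genes depended on the length used.

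**Figure D2:**
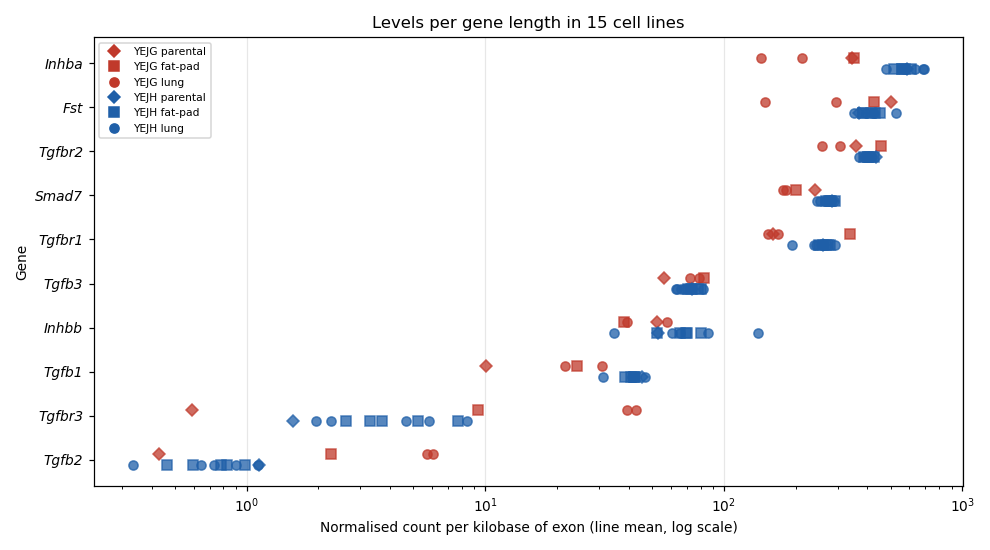
Normalised count per kilobase of exon (horizontal axis, log scale) of each gene (vertical axis), with 1 point per line, coloured by origin and shaped by site. *Inhba*, *Fst* and *Tgfbr2* lead at about 400 to 500 on average, while *Tgfbr3* spreads from 0.591 in YEJG to 42.8 in YEJG-M1.

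To ask whether lines of the 2 origins differ, the 3 YEJG-derived lines were compared with the 10 YEJH-derived lines, with site as a covariate. *Tgfb2* and *Tgfbr3* were higher in YEJG-derived lines, and *Tgfb1*, *Inhba* and *Smad7* were lower. Thus 5 of the 10 genes passed an adjusted p of 0.05 (edgeR's quasi-likelihood test, Benjamini-Hochberg over all genes), where 40.8% of the 15815 genes tested did so. The size of the change had a median of 0.616 on the log2 scale over the 10 genes and of 0.242 over all genes tested. The line means of the same 5 genes did not overlap between the origins, which held for 26% of 14339 genes. All 10 genes passed the expression filter. Without YEJG-FP the count rose to 8, with *Tgfbr1*, *Tgfbr2* and *Fst* as the additions, all lower in YEJG. In that setting 44.5% of 16199 genes passed. Without both YEJG lung lines, and with the parental lines included, 3 genes passed (*Tgfb1*, *Inhba* and *Smad7*, all lower in YEJG), and *Tgfb2* (log2 0.80, adjusted p = 0.285) and *Tgfbr3* (log2 0.47, adjusted p = 0.611) did not. This last comparison, in which 21% of 16063 genes passed, was added after the data were seen.

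*Tgfb1* (chr7:25386390-25404506, plus strand, GRCm39), the most studied of the 3 TGF-beta ligands, was at 51.2 ± 6.60 normalised counts (SD, n = 3 libraries) in parental YEJG. In the lines derived from it, *Tgfb1* was at 123 in YEJG-FP, 110.3 in YEJG-M1 and 157 in YEJG-M2. Parental YEJH held 231 normalised counts, and the 10 YEJH-derived lines ran from 158 to 239 with a median of 213. All YEJG lines were therefore below all YEJH lines, by a narrow margin between YEJG-M2 and YEJH-M5. The log2 difference between derived lines was -0.69 with a standard error of 0.12 (edgeR, adjusted p = 8.66e-04). Parental YEJG stood lowest of the 15 lines, and its fat-pad descendant was 2.40 times higher.

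*Tgfb2* (chr1:186354985-186438294, minus strand), the isoform that relies most on betaglycan, was scarce. The lung line YEJG-M1 had 35.8 ± 7.18 normalised counts (SD, n = 3 libraries), YEJG-M2 had 37.7 ± 4.18 and YEJG-FP had 14.1 ± 6.21. Parental YEJG held 2.69 ± 3.68 and parental YEJH 7.06 ± 0.978. The 10 YEJH-derived lines lay between 2.10 and 6.97, with a median of 4.74. The 3 YEJG-derived lines were thus the highest of all 15, and parental YEJG was within the YEJH range. The log2 difference between derived lines was 2.52 (SE 0.30, adjusted p = 4.58e-05, edgeR). The counting behind the low values is coarse, since *Tgfb2* had only 7 to 20 reads over the 3 libraries of each YEJH-derived line.

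*Tgfb3* (chr12:86102756-86126301, minus strand), the third TGF-beta ligand, varied least. Its values in derived lines were 429 in YEJG-FP, 378 in YEJG-M1 and 408 in YEJG-M2, against 330.2 to 428 with a median of 376 in the YEJH-derived lines. The groups overlapped, and the log2 difference of 0.12 (SE 0.078, adjusted p = 0.259, edgeR) did not pass. It passed only on leaving out YEJH-M1, at a log2 difference of 0.18 (adjusted p = 0.0147). Within the YEJH lines, *Tgfb3* in YEJH-M1 (428) stood above the other 4 lung lines, which lay between 330.2 and 355. Exons of *Tgfb3* share 179 bases with *Ttll5* on the opposite strand, and reads of the 2 genes there cannot be told apart with a kit that does not mark strand.

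*Tgfbr3* (chr5:107249402-107437623, minus strand), encoding betaglycan, had the widest range of the 10 genes. YEJG-M1 had 293 ± 8.13 normalised counts and YEJG-M2 had 268 ± 6.21 (SD, n = 3 libraries), with 64.2 in YEJG-FP, 4.04 in parental YEJG and 10.7 in parental YEJH. The YEJH-derived lines lay between 13.4 and 57.7, with a median of 28.6. The 2 YEJG lung lines were apart from all others, YEJG-FP was a little above the highest YEJH line, and both parental lines were the lowest of the 15. Between derived lines the log2 difference was 2.56 (SE 0.47, adjusted p = 8.91e-04, edgeR). Among YEJH-derived lines, values differed up to 4.30 times, and those of fat-pad lines (17.9 to 52.7) lay inside those of lung lines (13.4 to 57.7).

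*Tgfbr1* (chr4:47353134-47414931, plus strand), the type I receptor, was at 2235 normalised counts in YEJG-FP but at 1012 in YEJG-M1, 1120 in YEJG-M2 and 1068 in parental YEJG. Parental YEJH held 1726, and the YEJH-derived lines lay between 1282 and 1929 with a median of 1724. YEJG-FP was thus the highest of the 15 lines, and the other YEJG lines were the lowest 3. Over derived lines the log2 difference of -0.23 (SE 0.15, adjusted p = 0.232, edgeR) did not pass, and without YEJG-FP it was -0.61 (adjusted p = 6.97e-04).

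*Tgfbr2* (chr9:115913361-116004800, minus strand), the type II receptor, was likewise highest in YEJG-FP and low in the lung lines of that origin. It was at 4023 in YEJG-FP, 2278 in YEJG-M1, 2690 in YEJG-M2 and 3162 in parental YEJG. Parental YEJH held 3831, and the YEJH-derived lines lay between 3245 and 3741 (median 3510), a spread of only 1.15 times. The YEJG lung lines were the lowest of the 15 and YEJG-FP the highest. The log2 difference over derived lines was -0.23 (SE 0.099, adjusted p = 0.0827, edgeR), and without YEJG-FP it was -0.48 (adjusted p = 8.6e-05). In limma with libraries kept apart *Tgfbr2* passed as well (adjusted p = 0.0114).

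*Inhba* (chr13:16186373-16206206, plus strand), encoding the subunit of activin A, had 1015 ± 161 normalised counts in YEJG-M1, 1510 ± 128 in YEJG-M2, 2501 ± 247 in YEJG-FP and 2457 ± 541 in parental YEJG (SD, n = 3 libraries). Parental YEJH held 4183 ± 1788, the largest spread between repeats of any line. The YEJH-derived lines lay between 3391 and 4903, with a median of 4079. All 4 YEJG lines were below all 11 YEJH lines, and the 2 YEJG lung lines were lower still. The log2 difference between derived lines was -1.35 (SE 0.20, adjusted p = 1.9e-04, edgeR).

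*Inhbb* (chr1:119343193-119350021, minus strand), the subunit of activin B, overlapped between the origins. YEJG-M1 had 250 normalised counts, YEJG-M2 had 168 and YEJG-FP had 165, while YEJH-derived lines ran from 149 to 600.5 with a median of 290.1. The highest of these, YEJH-M1 at 600.5 ± 38.3, and the lowest, YEJH-M5 at 149 ± 28.4 (SD, n = 3 libraries), were both lung lines. The log2 difference was -0.73 (SE 0.32, adjusted p = 0.0805, edgeR), and it passed on leaving out YEJH-M5 (log2 -0.85, adjusted p = 0.0165), in DESeq2 (adjusted p = 0.0342) and in limma with libraries kept apart (adjusted p = 0.023).

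*Fst* (chr13:114588731-114595521, minus strand), the extracellular activin trap, was at 704 ± 105 normalised counts in YEJG-M2 and 1390 ± 156 in YEJG-M1 (SD, n = 3 libraries), against 2007 in YEJG-FP and 2364 in parental YEJG. Parental YEJH held 1742, and the YEJH-derived lines lay between 1661 and 2489 (median 1975). The 2 YEJG lung lines were the lowest of all and differed 1.97 times from each other, and the other YEJG lines fell within the YEJH range. The log2 difference over derived lines was -0.54 (SE 0.21, adjusted p = 0.0559, edgeR), and without YEJG-FP it was -0.94 (adjusted p = 0.0031). *Fst* also passed in DESeq2 (adjusted p = 0.0275), in limma with libraries kept apart (adjusted p = 4.33e-04) and in the libraries of set A alone (adjusted p = 0.0289, edgeR).

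*Smad7*, the inhibitory Smad, was at 952 in YEJG-FP, 844 in YEJG-M1, 866 in YEJG-M2 and 1149 in parental YEJG. Parental YEJH held 1354, and the YEJH-derived lines lay between 1171 and 1382 (median 1308). The 4 YEJG lines were the lowest of the 15, with parental YEJG just below YEJH-M5. *Smad7* had the smallest adjusted p of the 10 genes, since the change was modest (log2 -0.55) and its standard error small (0.050, adjusted p = 9.4e-06, edgeR).

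The ratios between genes within a line add to these levels. Per kilobase, *Inhba* was 0.69 times *Fst* in parental YEJG, 0.827 times in YEJG-FP, 0.484 times in YEJG-M1 and 1.42 times in YEJG-M2. The ratio was 1.59 in parental YEJH, 1.2 to 1.58 in its fat-pad lines and 0.904 to 1.80 in its lung lines. The level of the trap thus exceeded that of the ligand subunit in 3 of 4 YEJG lines and in 1 of 11 YEJH lines (YEJH-M1), at the level of mRNA. This count depended on the gene length, since with the longest transcript it was 4 of 4 and 5 of 11 lines. The ratio of *Tgfbr2* to *Tgfbr3* was 609 in parental YEJG and 48.8 in YEJG-FP, but only 6.05 in YEJG-M1 and 7.80 in YEJG-M2. The YEJH lines lay between 45.9 and 279.

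**Figure D3:**
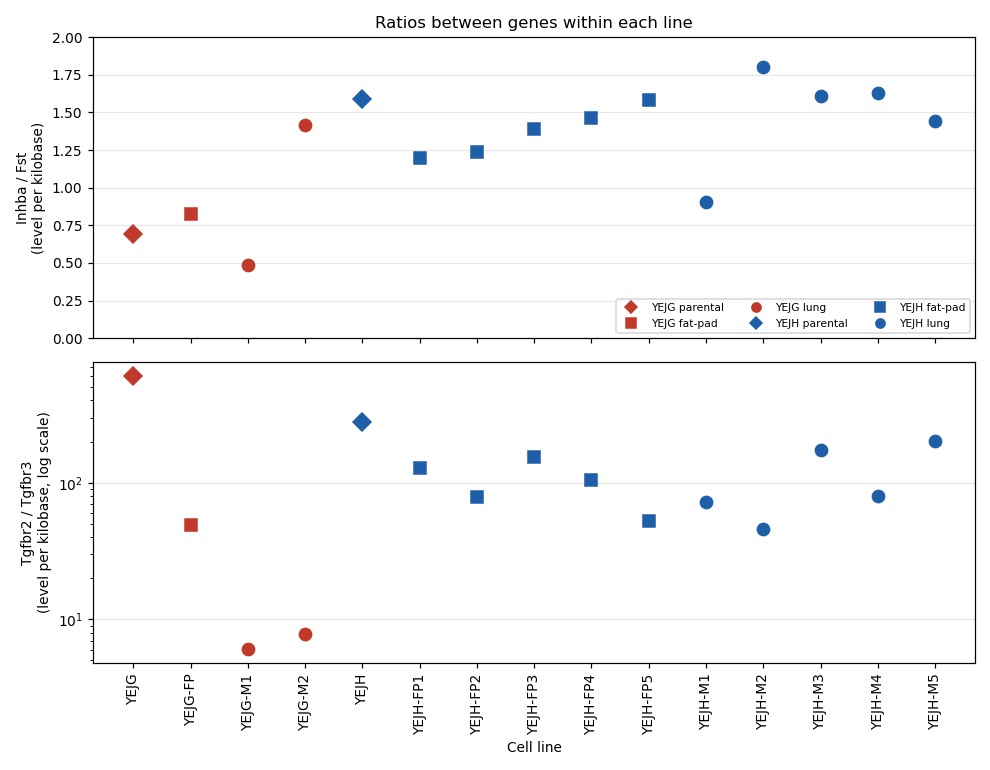
Ratio of *Inhba* to *Fst* (upper panel, linear axis from 0) and of *Tgfbr2* to *Tgfbr3* (lower panel, log axis) in each cell line, from levels per kilobase, with 1 point per line. The YEJG lung lines have the lowest *Tgfbr2* to *Tgfbr3* ratios, 6.05 and 7.80, and the 2 parental lines the highest, 609 and 279.

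To ask whether growth in the lung or in the fat pad leaves a difference in the lines, the 7 lung lines were compared with the 6 fat-pad lines. In edgeR 0 of the 10 genes passed an adjusted p of 0.05, and 0% of the 15056 genes tested did. At an unadjusted p under 0.05 there was 1 of the 10, *Tgfbr1* (log2 -0.33, SE 0.13, adjusted p = 0.909), and 784 of all genes. DESeq2 also called 0 of the 10, and 21 of all 15056 genes. In limma with libraries kept apart, 9 of the 10 passed the filter and 0 were called, where 77 of 12950 genes were. The largest estimates were those of *Tgfbr3* (log2 1.49, SE 0.74) and *Tgfb2* (log2 1.15, SE 0.69), with wide standard errors. Lung lines covered 13.4 to 293 normalised counts for *Tgfbr3* and fat-pad lines 17.9 to 64.2, and only the 2 YEJG lung lines exceeded the fat-pad range. In the YEJH-derived lines alone, edgeR called 0 of the 10 and 7 of all 14990 genes tested. There *Inhba* averaged 4344 ± 632 normalised counts in lung and 4008 ± 233 in fat-pad lines, and *Fst* 2003 ± 305 and 1946 ± 146 (SD, n = 5 lines each).

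Within the lung lines, those of YEJG had more *Tgfb2* and *Tgfbr3* and less of both main receptors, *Tgfb1*, *Inhba*, *Fst* and *Smad7* than those of YEJH. The 2 YEJG lung lines were compared with the 5 YEJH lung lines in a fit of 4 groups, and 8 of the 10 genes passed (edgeR, adjusted p under 0.05), where 43.2% of 17042 genes did. Over all 10 genes the median size of change was 0.634 on the log2 scale, against 0.315 over all genes tested. *Tgfbr3* (log2 3.16, SE 0.46, adjusted p = 1.23e-04) and *Tgfb2* (log2 2.97, SE 0.30, adjusted p = 7.54e-06) were higher in YEJG. *Inhba* was 3.42-fold lower (log2 -1.78, SE 0.16, adjusted p = 3.04e-06) and *Fst* 1.90-fold lower (log2 -0.92, SE 0.21, adjusted p = 0.00341). *Tgfb1* (-0.61), *Tgfbr1* (-0.59), *Smad7* (-0.56) and *Tgfbr2* (-0.46) were lower by smaller log2 amounts, with adjusted p between 1.66e-05 and 0.00652 in the same edgeR fit. *Tgfb3* (log2 0.14) did not pass unless YEJH-M1 was left out (log2 0.22, adjusted p = 0.0148, edgeR), nor did *Inhbb* (log2 -0.66) unless YEJH-M5 was (log2 -0.85, adjusted p = 0.047, edgeR). The call of *Tgfb1* was lost without YEJG-M1 (log2 -0.39, adjusted p = 0.104). The marker shifts given above separate the same 2 lines from all others, and their part in these differences was not tested.

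**Figure D4:**
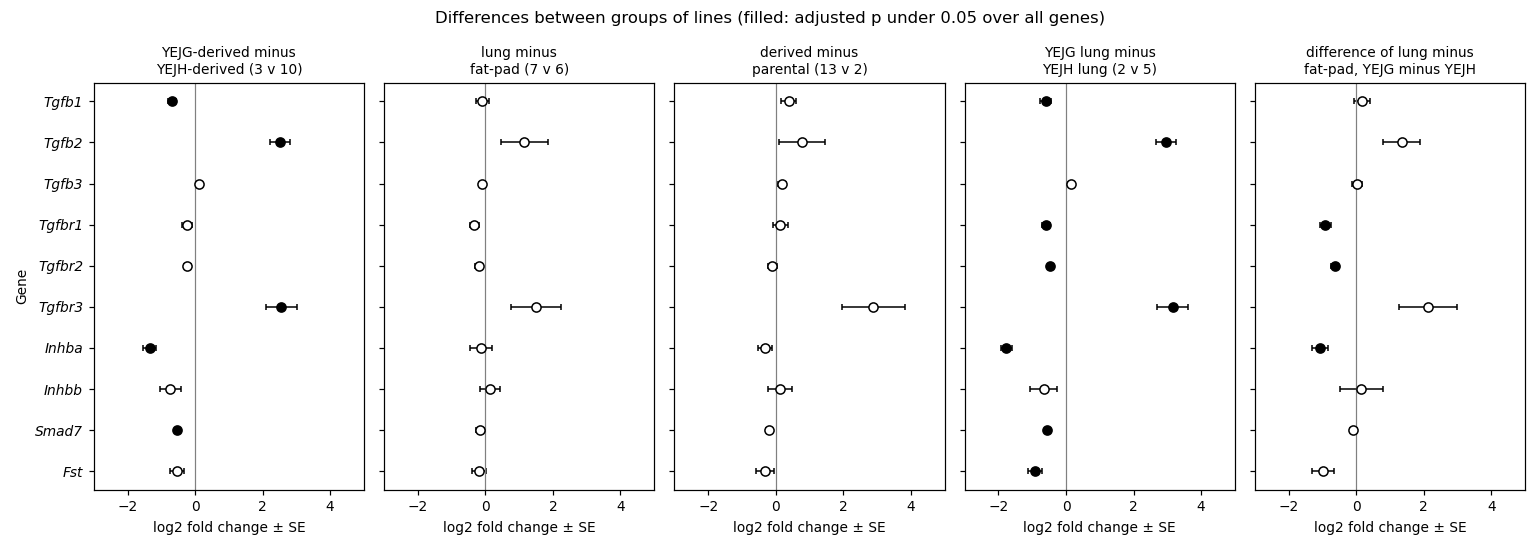
Log2 fold change (horizontal axis, with bars for 1 standard error) of the 10 genes (vertical axis) in 5 comparisons, 1 per panel, from edgeR. Filled points passed an adjusted p of 0.05 over all genes, which gives 5, 0, 0, 8 and 3 genes from left to right.

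Whether the contrast between sites differed between origins was tested as an interaction. *Inhba*, *Tgfbr1* and *Tgfbr2* passed, all with a lower lung value in YEJG than the YEJH lines would give, so that 3 of the 10 genes passed where 13.3% of 17042 genes did. The difference for *Inhba* was -1.07 on the log2 scale (SE 0.23, adjusted p = 0.0102), that for *Tgfbr1* was -0.92 (SE 0.17, adjusted p = 0.00422) and that for *Tgfbr2* was -0.64 (SE 0.11, adjusted p = 0.00257, all edgeR). The YEJG lung mean was 0.505 times the YEJG-FP value for *Inhba*, 0.477 times for *Tgfbr1* and 0.618 times for *Tgfbr2*. YEJG has a single fat-pad line, which was assumed to vary like the others. Parental YEJG, which did not enter this test, was close to YEJG-FP for *Inhba* (2457 and 2501) but to the lung lines for *Tgfbr1* (1068, against 1012 and 1120). *Fst* had an estimate of -0.97 (SE 0.32, adjusted p = 0.0686, edgeR), which passed without YEJG-M1 (-1.56, adjusted p = 0.00238), without the second repeat of every line (-1.10, adjusted p = 0.045) and in DESeq2 (-0.98, adjusted p = 0.021).

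The 13 derived lines were also compared with the 2 parental lines, with origin as a covariate. In edgeR 0 of the 10 genes passed, where 7.77% of 16361 genes did. An unadjusted p under 0.05 was reached by 2 of the 10 and by 3866 of all genes tested. DESeq2 called 1 gene, *Tgfbr3* (log2 2.63), and limma with libraries kept apart called 2, *Tgfbr3* and *Tgfb2*. Over all genes, DESeq2 called 2027 of 16361 and limma 2481 of 13824. In edgeR *Tgfbr3* had a log2 difference of 2.89 (SE 0.93, adjusted p = 0.0715), and its parental values of 4.04 and 10.7 lay below all derived lines. The result depended on which parental line was kept. Without YEJH as parent, which leaves parental YEJG alone, the log2 differences included 5.64 for *Tgfbr3*, 3.44 for *Tgfb2*, 1.33 for *Tgfb1* and -0.39 for *Smad7*. Without parental YEJG, the estimates of *Tgfb1* (-0.15) and *Tgfb2* (-0.58) changed sign. *Tgfbr3* also passed without YEJG-FP (log2 3.03, adjusted p = 0.0391) and without the third repeat of every line (log2 3.28, adjusted p = 0.045, both edgeR).

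Among YEJH lines, YEJH-M1 stood at the edge of the range for several of the genes. It had the highest *Inhbb* (600.5), *Fst* (2489) and *Tgfb3* (428) and the lowest *Inhba* (3391) and *Tgfbr1* (1282) of the 11 YEJH lines. Its *Inhba* to *Inhbb* ratio per kilobase was 3.41, below the 6.44 to 16.4 of the other YEJH lines. YEJH-M5 was lowest for *Inhbb* (149), *Tgfb1* (158) and *Smad7* (1171) and highest for *Tgfbr1* (1929). These are the values of single lines, whose repeats are not independent samples, and no p-value was computed for them.

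Known genes of the wider pathway, 72 in all, were counted in the same fits. In the comparison of origins over derived lines, 57 of them were tested, 13 were higher and 19 lower in YEJG (edgeR, adjusted p under 0.05). Of all 15815 genes, 40.8% passed in either direction, 3032 higher and 3421 lower. The median size of change was 0.525 on the log2 scale against 0.242 over all genes. Without both YEJG lung lines, and with the parental lines included, 5 were higher and 15 lower, where 21% of all genes passed. Of 8 receptors and co-receptors tested, 5 were lower and 1 was higher. Among the lower was *Acvrl1*, a type I receptor of BMP9 and TGF-beta, at 1.42 to 3.84 normalised counts in YEJG-derived and 8.34 to 23.7 in YEJH-derived lines (log2 -2.67, SE 0.39, edgeR). Of 8 intracellular inhibitors, 5 were lower, led by *Pmepa1*, which sequesters receptor Smads, at 655 to 2250 against 3140 to 4050 (log2 -1.32, SE 0.23, adjusted p = 5.67e-04). *Tgif2*, a Smad corepressor, was called higher with a high value in 1 of the 3 derived lines, at 121 in YEJG-FP and 23 in parental YEJG against 0.925 in YEJG-M1, 0 in YEJG-M2 and at most 4.92 in YEJH lines. Of 15 known targets, 7 were higher and 2 lower. *Tagln*, which encodes a smooth muscle actin-binding protein, was higher by 4.29 (SE 0.44), *Col1a1* by 2.61 and *Zeb1*, a repressor of epithelial genes, by 2.51 (SE 0.27, adjusted p = 2.53e-05), all on the log2 scale in edgeR. *Tagln* had 39 to 265 reads in the YEJG-derived lines and 3 to 11 in the YEJH-derived lines. It passed the expression filter mainly through the YEJG lines, so no p-value is given for it. *Cdkn1a*, a cell cycle inhibitor, was lower (log2 -0.92, SE 0.12, adjusted p = 1.01e-04). *Col1a1* and *Dcn* are also on the fibroblast list. *Smad6*, the other inhibitory Smad, was higher by 3.84 (SE 0.45, adjusted p = 4.27e-05), at 21.2 in YEJG-FP, 92.4 in YEJG-M1 and 100 in YEJG-M2 against 2.06 to 8.24 in the YEJH-derived lines, the opposite direction to *Smad7*. The remaining named genes were *Inha*, the inhibin alpha subunit, at 0 to 0.336 against 1.53 to 12 normalised counts, and *Grem1*, a BMP antagonist, at 0 to 2.04 against 1.22 to 8.59, both near the limit of detection. *Inha*, *Grem1* and *Acvrl1* passed the expression filter mainly through the YEJH lines, so no p-value is given for them. The count of 19 lower genes includes them.

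In the YEJG lung against the YEJH lung lines, 19 of 60 pathway genes tested were higher and 17 lower (edgeR, adjusted p under 0.05), where 43.2% of all genes passed in either direction. All 5 called intracellular inhibitors were lower, with *Smurf2*, a ubiquitin ligase that works with Smad7 on the receptor, 2.35-fold lower (log2 -1.23, SE 0.072, adjusted p = 1.38e-07). *Itgb6*, a subunit of the integrin that releases latent TGF-beta, was at 98.1 and 150 against 235 to 402 (log2 -1.41, SE 0.19, adjusted p = 8.6e-05). Of 16 known targets, 11 were higher and 2 lower. *Acta2*, smooth muscle actin, was at 19.9 in YEJG-M1 and 91.2 in YEJG-M2 against at most 2.47 in YEJH lung lines (log2 6.34, SE 0.74), and *Tagln* at 59.9 and 84.1 against 0.862 to 3.05. *Smad9*, a Smad of the BMP branch, was at 12.5 and 16 against at most 1.15 (log2 4.51, SE 0.45). *Acta2* and *Smad9* passed the expression filter of this fit only through the YEJG lung lines, where they are high. They were not tested in the comparison of origins over derived lines, so no p-value is given for them. The count of 19 higher genes includes both, and that of 11 higher targets includes *Acta2*. *Smad6* (log2 4.67), *Col1a1* (3.31), *Acvrl1* (-3.36) and *Pmepa1* (-1.65) moved as over all derived lines, and *Inha* was at 0 in both YEJG lung lines. The count of 17 lower genes includes *Inha* and *Acvrl1*, which passed the expression filter mainly through the YEJH lines.

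For the difference between origins in the site contrast, 11 of 60 pathway genes were higher and 6 lower (edgeR, adjusted p under 0.05), where 13.3% of all genes passed in either direction. *Zeb1* (log2 1.84, SE 0.29, adjusted p = 0.00177) and *Zeb2* (log2 1.80, SE 0.25, adjusted p = 9.65e-04), another repressor of epithelial genes, were among the higher genes, with *Smad6* (2.82), *Tagln* (2.81) and the activin-binding *Fstl3* (1.61). *Itgb6* (-1.48), the matrix protein *Ccn2* (-1.13), *Smurf2* (-0.87) and *Smurf1* (-0.62) were among the lower, with *Tgif2*. Between lung and fat-pad lines 0 of 54 pathway genes passed in edgeR. An unadjusted p under 0.05 was reached by 6 of them and by 784 of all 15056 genes tested. Between derived and parental lines 1 of 59 pathway genes passed, against 7.77% of all genes. It was *Id1*, a BMP target, at 1080 in both parental lines and 434 to 709 in the derived lines (log2 -0.87, SE 0.11, adjusted p = 8.14e-04, edgeR).

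The genes whose line means most resembled each of the 10 were sought among 11747 protein-coding genes, as Pearson correlations of log2 values over the 15 lines, in which the YEJG lines carry much of the variation. They are a description, since lines of an origin share their parent. The closest to *Inhba* were *Atf3* (0.983), *Usp53* (0.981) and *Atp8a1* (0.981), and the closest to *Smad7* were *Rcan3* (0.978), *Septin9* (0.975) and *Carhsp1* (0.969). *Tgfb1* was nearest to *Stom* (0.957), *Mapk7* (0.951) and *Prkca* (0.936), *Tgfb2* to *Ssbp2* (0.947), *Csf1* (0.943) and *Il6st* (0.941), and *Tgfb3* to *Mgst1* (0.828) and *Syt13* (0.796). The receptors *Tgfbr1* and *Tgfbr2* had *Xylt1* (0.946) and *Rnf113a2* (0.924) as their nearest genes, and *Tgfbr3* had *Pofut3* and *Gas1* (0.95 each). *Inhbb* was nearest to *Abcb9* (0.886) and *Fst* to *Etv5* (0.938).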

How the data were processed

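RNA from 15 *PyMT*+ cell lines was sequenced on a NextSeq500 from libraries of the TruSeq RNA Library Prep kit v2, which does not mark strand. For each of 45 libraries the authors deposited gene-level counts, which are whole numbers and not normalised. The submitters' processing notes name FastQC, HISAT2, SAMtools 1.2, HTSeq and the build GRCh38, although the gene identifiers are those of mouse. Versions of the other tools and the annotation release are not given in the sources used here. Reads that fell on no single gene (31.6% to 43.3% of each library) were left out, and 0 columns were left without a sample. Of 54838 identifiers, 50764 (92.6%) matched GENCODE M39 on GRCm39, which gave names, positions and lengths.

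Lines were grouped by the labels. Counts of the 3 libraries of a line, which the labels do not tie to separate cultures, were added up. Lines were then tested with edgeR 4.0.16 (quasi-likelihood F test, R 4.3.3) after TMM scaling and filterByExpr, with Benjamini-Hochberg adjustment over all genes and a threshold of 0.05. The standard error is the log2 fold change divided by the square root of F. The p-values measure the spread between lines. Normalised counts were counts over the TMM-scaled library size relative to its mean. Alternatives used DESeq2 1.42.0, limma 3.58.1 with libraries kept apart, other filters and scalings, and fewer lines or libraries. The scripts were tested on simulated data. Promoter motifs and figures were made with Python 3.11.15 and matplotlib 3.10.9.

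The genes named were the 10 listed and, per comparison, up to 5 called pathway genes in each direction with the largest change. For likeness, up to 3 protein-coding genes with the highest correlation of log2 line means (pseudocount 1) were taken, of which a gene is not reported here. The 10 genes, the lists and the comparisons were chosen with earlier results of these data known.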

Additional observations from a re-analysis of the deposited data

Results flagged for a closer look

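*Tgfb3* in YEJH-M1 stood apart from the other YEJH lung lines, at 428.1 normalised counts against a nearest value of 354.6, a gap of 0.751 of the whole range of the 5 lines, where 0.71 is the critical value at the 95% level. It was the only such case in 20 groups of 5 lines, of which chance would give about 1.

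The lung against fat-pad contrast differed between origins in 3 of the 10 genes. The difference, YEJG minus YEJH on the log2 scale, was -0.92 for *Tgfbr1*, -0.64 for *Tgfbr2* and -1.07 for *Inhba*, as tested in edgeR by an interaction that rests on a single YEJG fat-pad line.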

How the results depend on the processing

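Of the values of single genes over all alternatives, 251 of 270 for origin, 265 of 276 for site, 249 of 270 for derived against parental lines, 216 of 220 for origin in lung lines and 196 of 210 for the interaction kept their direction and their side of the threshold. For origin, DESeq2 called 7 genes, set A alone 6, and limma with libraries kept apart 8, as it did with the technical repeat as a replicate block. Over all genes these fits called 6820 of 15815, 5405 of 13478, 6500 of 13603 and 6597 of 13878. The count over leaving out single lines or repeats was 5 to 8, where between 4901 and 7208 of all genes were called. Without both YEJG lung lines, a setting chosen after seeing the data, 3 were called, where 21% of all genes were. There *Tgfb3* (-0.063), *Tgfbr2* (0.014) and *Fst* (0.20) changed sign on the log2 scale. For derived against parental lines, 1 gene was called by DESeq2 and 1 in the libraries of set A alone, 2 in limma and 2 with the technical replicate block, and 0 to 4 on leaving out single lines or repeats. Over all genes, DESeq2 called 2027 of 16361, set A 939 of 13890, limma 2481 of 13824 and the block fit 2563 of 13942. Leaving out single derived lines or repeats gave 627 to 2149 calls over all genes, with 0 or 1 of the 10 genes called. The count of 4 was reached without parental YEJH, which leaves 1 parental line. Calls over all genes also rose there. Without both YEJG lung lines *Tgfbr2* (0.040) and *Fst* (0.022) changed sign in this comparison of derived and parental lines. Leaving out single lines gave *Tgfb1* -0.15 to 1.33, *Tgfb2* -0.58 to 3.44, *Tgfb3* -0.026 to 0.46, *Tgfbr1* -0.072 to 0.43, *Inhbb* -0.24 to 0.47 and *Fst* -0.81 to 0.18, with both ends of each range reached by leaving out a parental line.

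For site, *Tgfb1* changed sign in set B (0.030), and *Inhba* (0.10) and *Fst* (0.033) did so in YEJH-derived lines alone. The YEJH lines are numbered alike at both sites. The paper describes micrometastases that formed after resection of the primary tumour, so a lung and a fat-pad line could share a mouse, but the labels do not say. Same-numbered lines did not deviate together (mean r of -0.031, from -0.109 to 0.0691 over 5 pairs), which cannot show that they came from different mice. The numbers were taken as pairs only in an alternative. In these YEJH lines with the line number as a replicate block, *Inhba* (0.092) and *Fst* (0.024) kept the sign they had without it, *Tgfb2* was -0.0069 (0.011 without the block) and *Tgfbr3* was -0.047 (0.011 without the block). Of the 10 genes, 0 were called either way. Over all genes, edgeR called 0 of 15857 with the block and 7 of 14990 without it. Leaving out single lines gave *Tgfb1* -0.19 to 0.0077, *Inhba* -0.23 to 0.033 and *Inhbb* -0.13 to 0.25. For the interaction, *Tgfb3* was -0.015 in set A and -0.036 in set B, *Smad7* 0.17 in set A and *Inhbb* -0.20 in set B, and leaving out lines or repeats gave *Tgfb1* -0.13 to 0.39, *Tgfb3* -0.049 to 0.097 and *Inhbb* -0.18 to 0.47. In lung lines, *Tgfb1* lost its call in set A (-0.45, adjusted p = 0.0521, edgeR). With the longest transcript as length, the level per kilobase moved to 71.26 for *Tgfb1*, 90.19 for *Tgfb3* and 629.8 for *Fst*. The cause of the other changes was not tested. Depth limits *Tgfb2* most, and the single fat-pad line and single parental line of YEJG limit every contrast that uses them.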
